A study of Mus musculus with 24 samples.

Results

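The 55 genes described here belong to the type I interferon response of the mouse. They were taken as a fixed list of gene symbols, matched by symbol in the count tables, and all 55 were among the 52976 symbols counted. The list holds the ligand Ifnb1 and its receptor chains, the transcription factors of the pathway, sensors of foreign nucleic acid, and the genes that interferon induces. It was composed by name, and no measured value of the libraries enters the rule. The genes were nonetheless chosen with earlier results of these data known.

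Type I interferons are secreted proteins that warn cells of infection or tissue damage. They bind a receptor made of Ifnar1 and Ifnar2, whose kinases activate STAT2, which acts with IRF9 in a complex that binds interferon-stimulated response elements in promoters. The induced genes block viral replication, degrade RNA, sense nucleic acid and attract lymphocytes, and IRF7 feeds back on the production of more interferon. In macrophages lipopolysaccharide (LPS), a bacterial component, induces Ifnb1 through TLR4, and the interferon then acts on the same cells. Macrophages and other leukocytes are strong sources and responders in skin wounds.

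The libraries are messenger RNA sequencing of mouse material, 18 from wounds and 6 from RAW264.7 cells, an established macrophage line, in groups of 3. The gel, named Fmoc-KYF-AgNCs-3S1C-Hyd2 on the wound labels, joins peptide and silver nanoclusters to a hydrogenase that tolerates oxygen. Hydrogenases make molecular hydrogen, here with light as the energy source. Wounds of diabetic mice treated with the hydrogel at days 1, 7 and 14 are set against diabetic control wounds of the same day, and RAW264.7 cells with hydrogel against RAW264.7 cells labelled LPS. The sample titles call the hydrogel wounds TEOA, the control wounds Dia, and the cell groups H2 and Without_H2. What TEOA adds to the treatment cannot be told from the titles. The aim, by the title of the series, is hydrogen therapy of diabetic wounds. The strain, age and diabetes model of the mice, the dose of gel or LPS and the light schedule are not given in the sources used here. The labels of the 3 hydrogel cell libraries carry the gel suffixes Hyd3, Hyd4 and Hyd5 and do not name LPS, while the series design describes macrophages induced by LPS in both arms. Whether LPS was present with the hydrogel cannot be told from the labels, and no library of unstimulated cells was used here, so each difference between the cell groups may include that of LPS. No label says whether the 3 replicates of a group are different animals or cultures. The p-values therefore describe only how much these libraries vary, possibly for technical reasons.

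Total counts were 12.4 M to 27.1 M read pairs in the wounds and 17.9 M to 24.0 M in the cells. The spread between libraries was uneven. The highest library of a group exceeded the lowest by a median over the genes of 3.13 times in hydrogel wounds and 4.49 times in control wounds at day 1, and by 1.25 and 1.12 times at day 7. Replicate 1 stood apart in 3 groups: it held the highest value of 49 of 53 genes in hydrogel wounds at day 1, of 52 of 53 in control wounds at day 1 and of 48 of 54 in control wounds at day 14. In the RAW264.7 libraries the macrophage markers summed to 9809 to 10380 CPM (counts scaled by the library total) in hydrogel cells and 6393 to 6491 CPM in LPS-only cells, and T and NK cell markers to at most 0.0966 CPM, while 3 of the 10 macrophage markers (Mertk, C1qa and Mrc1) stood at or near 0 in both cell groups. The libraries of control wounds at day 7 and of LPS-only cells differed little more than sampling noise. Their median chi-square per gene was 0.644 to 0.796 and 0.511 to 0.613, against 0.455 from sampling noise alone. They were kept as separate samples because their means lay above 1, which does not show that they are separate animals or cultures. In hydrogel wounds the medians were 1.29 to 2.31 at day 7, against 7.63 to 26.8 at day 1. The wound libraries held markers of keratinocytes, fibroblasts, muscle, fat and leukocytes together.

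To show the letters through which interferon factors act, 250 bases before the RefSeq start of 5 genes are printed 5′ to 3′ on the gene's strand (GRCm38.p6, mouse). Windows from 250 bases before to 50 bases after a start were found for 43 of the 55 genes. Capitals mark the core of the interferon-stimulated response element, GAAA followed by any 2 bases and GAAA again, on either strand, and in Irf1 they mark TTCNNNGAA, the GAS element of interferon-induced promoters. Isg15 (chr4:156200819-156201068, minus strand) holds 3 overlapping matches, Ifit1 (chr19:34640639-34640888, plus strand) 2, Rsad2 (chr12:26456453-26456702, minus strand) and Cxcl10 (chr5:92348890-92349139, minus strand) 1 each, and Irf1 (chr11:53769764-53770013, plus strand) 1 GAS match.
Isg15: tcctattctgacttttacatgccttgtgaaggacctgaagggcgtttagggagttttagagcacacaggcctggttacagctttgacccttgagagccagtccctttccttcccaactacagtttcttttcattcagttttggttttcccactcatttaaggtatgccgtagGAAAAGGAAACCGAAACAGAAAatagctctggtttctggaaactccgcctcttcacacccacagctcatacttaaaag
Ifit1: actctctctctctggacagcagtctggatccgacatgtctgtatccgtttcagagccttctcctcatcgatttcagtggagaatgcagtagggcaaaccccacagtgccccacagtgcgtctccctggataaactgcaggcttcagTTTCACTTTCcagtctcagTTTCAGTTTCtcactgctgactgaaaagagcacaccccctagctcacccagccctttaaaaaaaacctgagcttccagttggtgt
Rsad2: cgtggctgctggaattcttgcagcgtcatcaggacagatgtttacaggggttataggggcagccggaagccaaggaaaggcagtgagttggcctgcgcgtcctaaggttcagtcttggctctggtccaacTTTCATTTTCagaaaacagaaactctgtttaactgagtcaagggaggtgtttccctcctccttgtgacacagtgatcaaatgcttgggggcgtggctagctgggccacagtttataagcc
Cxcl10: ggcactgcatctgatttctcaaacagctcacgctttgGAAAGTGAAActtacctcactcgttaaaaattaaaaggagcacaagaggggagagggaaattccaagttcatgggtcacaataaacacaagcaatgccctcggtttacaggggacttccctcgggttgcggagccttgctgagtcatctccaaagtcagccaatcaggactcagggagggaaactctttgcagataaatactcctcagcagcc
Irf1: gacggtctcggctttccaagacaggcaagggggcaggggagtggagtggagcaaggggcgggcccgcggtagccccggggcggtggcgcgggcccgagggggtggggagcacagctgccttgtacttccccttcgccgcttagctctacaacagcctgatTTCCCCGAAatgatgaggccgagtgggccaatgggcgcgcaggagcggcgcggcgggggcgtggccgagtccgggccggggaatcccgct
The matches begin 78, 72 and 66 bases before the start of Isg15, 104 and 85 bases before that of Ifit1, 120 before that of Rsad2, 213 before that of Cxcl10 and 90 before that of Irf1. The response element letters were in a window of 18 of the 43 genes, against 3.99% of all 27025 genes with a window, and the GAS letters in 12 of 43, against 9.55% of those genes. The 2 motifs were searched on both strands and can overlap each other. A match describes the letters and shows no binding.

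Several of the genes are neighbours. The 5 Ifit genes lie on chromosome 19 between 34550694 and 34650009 (GRCm38), Oas1a, Oas1g, Oas2 and Oas3 on chromosome 5 between 120730334 and 120907521, Cxcl9, Cxcl10 and Cxcl11 on chromosome 5 between 92321347 and 92365485, and Psmb9, Tap1 and Psmb8 on chromosome 17 between 34181987 and 34201454. Close copies (Ifit1 with Ifit1bl1, Ifit3 with Ifit3b, Oas1a with Oas1g, the Trim30 genes, Ifi204 with Ifi205) share sequence, and read pairs that map to several places were not counted, so their values are uncertain. Psmb9 overlaps Tap1 by 212 bases and Parp9 overlaps Dtx3l by 140 bases on opposite strands, and the counting used no strand. Ifit3 is represented by 74 exonic bases in the annotation used, and its counts cover no more than that.

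Compared per length of exon, and leaving out Ifit3, the order of levels differed between wounds and cells. Ifi27l2a, a small interferon-induced protein, had the highest level of all in each of the 6 wound groups, at 80.96 CPM per kilobase in hydrogel and 4873 CPM per kilobase in control wounds at day 7. Bst2, the membrane protein tetherin that holds virus particles on the cell, led in both cell groups, at 605.3 CPM per kilobase in hydrogel cells and 758.2 CPM per kilobase in LPS-only cells, followed by Isg15 at 313.9 and 603.1 CPM per kilobase. The plot of every gene by library shows both the within-group spread and the group differences.

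**Figure D1:**
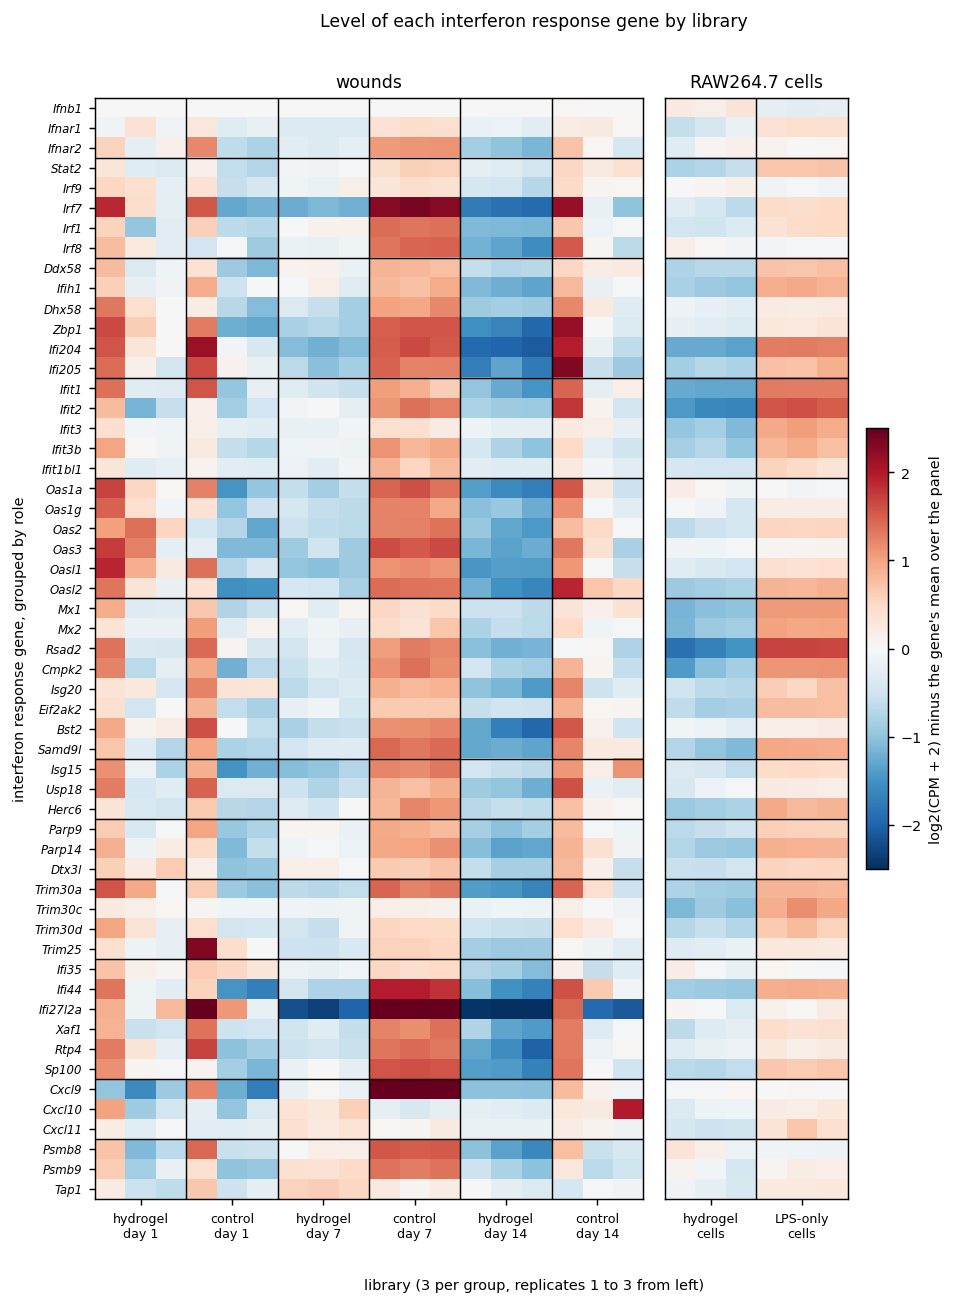
Level of each of the 55 genes (rows, grouped by role) in each library (columns, 3 per group, replicates 1 to 3 from left), as log2(CPM + 2) minus the gene's mean over the wounds (left) or over the cells (right); red is higher, blue lower. Control wounds at day 7 are red and hydrogel wounds at day 14 blue for most genes, and replicate 1 stands out in both day 1 groups and in day 14 controls.

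At day 7, the response was lower in hydrogel wounds across nearly all roles. Of 53 genes tested, 33 fell and 0 rose, against 11.7% of all 17592 genes tested that were called lower and 9.86% called higher (edgeR quasi-likelihood test, Benjamini-Hochberg adjusted p below 0.05). At an unadjusted p below 0.05, 46 genes differed. The median log2 fold change (hydrogel over control) was -1.88, against 0.012 over all genes. In 50 genes every hydrogel library lay below every control library, against 34.9% of all genes. In bulk tissue, fewer cells of a type and less RNA per cell cannot be told apart. Without 1 library of either day 7 group the count was 7 to 16 (16, 15 and 15 without control replicates 1, 2 and 3, and 7, 8 and 8 without hydrogel replicates 1, 2 and 3), and when each day 7 group entered as 1 summed library it was 0, with 3 at an unadjusted p below 0.05.

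Ifnb1, the ligand, could not be followed in the wounds. It had 0 counts in 17 of 18 wound libraries and 1 count in the other, a day 14 control, where a count of 0 allows up to 0.111 to 0.241 CPM by depth (3 counts per library). The receptor chains were measurable. Ifnar1 stood at 30.9, 30.9 and 31.0 CPM in hydrogel wounds at day 7, against 51.3, 54.5 and 52.9 CPM in control wounds, and had a log2 change of -0.78 ± 0.18 (± is the SE throughout; edgeR, adjusted p = 0.00817). Ifnar2, the other chain, fell by 1.48 ± 0.46 (adjusted p = 0.0334).

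Among the transcription factors at day 7, 3 of 5 fell. Irf7, the factor that amplifies interferon production, stood at 17.8, 19.4 and 18.4 CPM in hydrogel wounds, against 223, 238 and 223 CPM in control wounds. The groups were far apart, and the log2 change was -3.62 ± 0.89 (adjusted p = 0.0116, edgeR). Irf8, a factor of the myeloid lineage, fell by 1.72 ± 0.47 (adjusted p = 0.0189), and Irf1 fell too. Stat2 and Irf9, which act together in the response complex, were at log2 changes of -0.63 ± 0.23 and -0.44 ± 0.26 and did not pass. Stat2 had 30.6, 29.9 and 31.4 CPM in hydrogel wounds, against 44.2, 49.4 and 48.7 CPM in control wounds, which do not overlap. Of the sensors, 4 of 6 fell, among them Dhx58 (LGP2, a regulator of RNA sensing) by 2.16 ± 0.55 (adjusted p = 0.0128) and Ifi204, a DNA-binding protein of the p200 family, by 2.92 ± 0.75 (adjusted p = 0.0135).

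The effector families differed in how many of their genes passed at day 7. All 6 genes of the OAS family, whose products make oligoadenylates that activate RNase L or are related to those enzymes, fell. Oas2 stood at 4.45, 4.03 and 3.88 CPM in hydrogel wounds, against 20.2, 20.6 and 22.0 CPM in control wounds, a log2 change of -2.34 ± 0.37 (adjusted p = 0.00169, edgeR). Oas3 fell by 3.37 ± 0.77 (adjusted p = 0.00798), and Oasl1, which in mice restrains the translation of Irf7, by 3.00 ± 0.71 (adjusted p = 0.0095). Of the 5 Ifit genes, which bind foreign RNA, 2 fell: Ifit1bl1 by 3.04 ± 0.94 and Ifit3b by 1.37 ± 0.47. Ifit1bl1 was low, at 0.118 CPM per kilobase in hydrogel wounds and 0.973 in control wounds. Ifit1 had 4.59, 3.81 and 3.47 CPM in hydrogel wounds, against 14.9, 13.1 and 10.6 CPM in control wounds. The Ifit1 libraries do not overlap, but its log2 change of -1.70 ± 0.76 did not pass (adjusted p = 0.117).

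Of the other antiviral effectors 4 of 8 fell at day 7. Rsad2, the radical SAM enzyme viperin, stood at 3.02, 4.20 and 3.14 CPM in hydrogel wounds, against 12.2, 14.8 and 13.8 CPM in control wounds, and fell by 1.97 ± 0.63 (adjusted p = 0.0368, edgeR). Samd9l, an antiviral factor, fell by 1.92 ± 0.50 (adjusted p = 0.0143) and Bst2 by 1.88 ± 0.55 (adjusted p = 0.0247). Isg15, the ubiquitin-like modifier, stood at 8.61, 9.13 and 11.3 CPM in hydrogel wounds, against 49.8, 48.6 and 53.5 CPM in control wounds, and fell by 2.39 ± 0.62 (adjusted p = 0.0147). Herc6, which in mice attaches Isg15 to proteins, fell by 1.97 ± 0.61 (adjusted p = 0.0314). Usp18, which removes Isg15 and dampens the receptor, was at -1.98 ± 0.75 and did not pass (adjusted p = 0.0686).

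The remaining groups at day 7 held the widest range. Ifi27l2a stood at 36.8, 33.2 and 42.4 CPM in hydrogel wounds, against 2193, 2299 and 2277 CPM in control wounds, the lowest log2 change of the 53 genes at -5.91 ± 1.11 (adjusted p = 0.0034, edgeR). All 6 genes of its group fell, Sp100, a nuclear body protein, by 1.82 ± 0.47. Trim30a fell by 2.38 ± 0.61, Trim30d by 2.63 ± 0.89 and Parp14, an ADP-ribosyltransferase, by 1.20 ± 0.38. Trim30d was low, at 0.101 CPM per kilobase in hydrogel wounds and 0.626 in control wounds, and its hydrogel libraries differed by up to 15.5 times. Cxcl9, a chemokine for lymphocytes that carry CXCR3, stood at 4.59, 5.66 and 4.68 CPM in hydrogel wounds, against 40.3, 44.0 and 46.5 CPM in control wounds, and fell by 3.13 ± 0.89 (adjusted p = 0.0228).

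Only 3 genes had a positive log2 change at day 7, and none of them passed in the edgeR fit over all wound libraries. Cxcl10, a chemokine for the same receptor, had 3.81, 3.47 and 4.94 CPM in hydrogel wounds, against 1.86, 1.49 and 1.89 CPM in control wounds, a log2 change of 1.22 ± 0.81 (adjusted p = 0.292, edgeR). Cxcl11 was at 0.73 ± 0.69 and Tap1, a peptide transporter of antigen presentation, at 0.43 ± 0.28. Over the alternatives the adjusted p ranged over 0.000237 to 0.878 for Cxcl10, 0.0144 to 0.915 for Cxcl11 and 3.86e-05 to 0.885 for Tap1: limma-voom called all 3 genes higher, and an edgeR fit of the 2 day 7 groups alone called Cxcl10 and Tap1. In each of the 3 genes the hydrogel libraries lay above the control libraries, as in 35.3% of all genes. None of the 3 antigen processing genes was called, and Psmb8, an immunoproteasome subunit, had 39.7, 44.6 and 43.9 CPM in hydrogel wounds and 119, 117 and 119 CPM in control wounds (log2 change -1.47 ± 0.56, adjusted p = 0.0698).

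**Figure D2:**
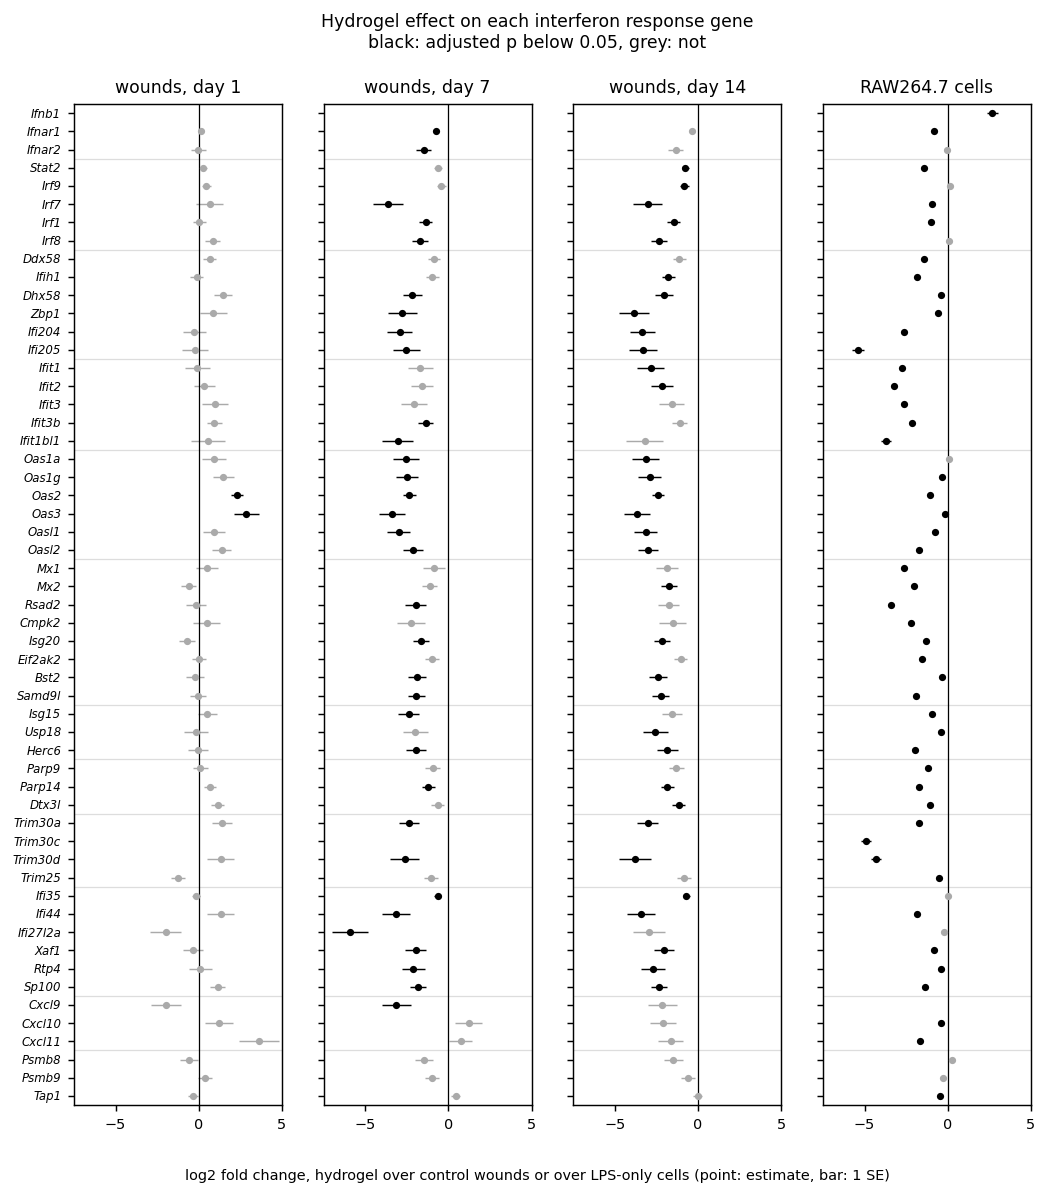
Log2 fold change of each gene (rows, grouped by role), hydrogel over control wounds at days 1, 7 and 14 and hydrogel over LPS-only RAW264.7 cells; points are edgeR estimates, bars 1 SE, and black points have an adjusted p below 0.05. At day 1, 2 points are black and lie to the right, at days 7 and 14, 33 black points each lie to the left, and in cells 45 lie to the left and Ifnb1 to the right.

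At day 14, 33 of 53 genes fell and 0 rose, against 10.3% of all genes called lower and 5.83% called higher. At an unadjusted p below 0.05, 47 differed. The log2 change was negative in all 53, with a median of -2.06 against 0.029 over all genes. In 48 genes the libraries of the groups did not overlap, against 20% of all genes. The control group was uneven, and without control replicate 1 the count was 9, while without hydrogel replicates 1, 2 or 3 it was 20, 13 or 8. With the day 7 libraries summed within groups, which changes the shared estimate of spread, 2 genes passed, Oas2 and Oasl2.

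Irf7 stood at 12.0, 10.8 and 10.2 CPM in hydrogel wounds at day 14, against 210, 39.0 and 21.1 CPM in control wounds, so that 1 control library was far above the other 2 and all 3 were above the hydrogel wounds (log2 change -3.03 ± 0.87, adjusted p = 0.0284, edgeR). All 5 transcription factors fell at day 14. Stat2 had 26.9, 25.8 and 22.9 CPM in hydrogel wounds, against 47.2, 37.7 and 43.1 CPM in control wounds, and fell by 0.76 ± 0.23 (adjusted p = 0.0382). Irf8 fell by 2.35 ± 0.48 (adjusted p = 0.00593) and Irf1 by 1.46 ± 0.40 (adjusted p = 0.0221). Irf9 fell by 0.83 ± 0.26. Of the sensors 5 of 6 fell, Ifih1 (MDA5, a sensor of long double-stranded RNA) by 1.80 ± 0.39 (adjusted p = 0.00729) and Ifi204 by 3.35 ± 0.76 (adjusted p = 0.00968). Neither receptor chain passed: Ifnar1 was at -0.37 ± 0.18 and Ifnar2 at -1.35 ± 0.46.

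Again all 6 OAS genes fell at day 14. Oas2 stood at 2.84, 1.81 and 1.49 CPM in hydrogel wounds, against 14.0, 11.2 and 7.24 CPM in control wounds, a log2 change of -2.40 ± 0.37 (adjusted p = 0.00167, edgeR). Oasl2 fell by 3.04 ± 0.60 (adjusted p = 0.00494). Oas2 and Oasl2 kept an adjusted p below 0.05 under every alternative run for day 14, and no gene did so for day 7, where the summed libraries left 0. Oasl1 had 0.750, 0.873 and 0.863 CPM in hydrogel wounds, against 13.9, 5.57 and 3.02 CPM in control wounds. Ifit1 fell by 2.85 ± 0.79 (adjusted p = 0.0244) and Ifit2 by 2.19 ± 0.66 (adjusted p = 0.035). Isg20, an exonuclease, fell by 2.16 ± 0.49, Samd9l by 2.25 ± 0.50, Usp18 by 2.56 ± 0.76 and Herc6 by 1.84 ± 0.60.

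Isg15 did not pass at day 14. Its 14.0, 12.8 and 12.2 CPM in hydrogel wounds lay below the 45.0, 22.7 and 46.4 CPM of control wounds (log2 change -1.55 ± 0.60, adjusted p = 0.0873, edgeR). Rsad2 was at -1.76 ± 0.64 and Ifi27l2a at -2.93 ± 0.96, neither called. Parp14 fell by 1.85 ± 0.38, Dtx3l, a ubiquitin ligase that pairs with Parp9, by 1.18 ± 0.38, Trim30a by 3.03 ± 0.63, Trim30d by 3.79 ± 0.95, Sp100 by 2.33 ± 0.48 and Ifi44 by 3.42 ± 0.86. Trim30d was low, at 0.0284 CPM per kilobase in hydrogel wounds and 0.411 in control wounds. None of the chemokines and none of the antigen processing genes was called. Cxcl10 had 1.93, 1.78 and 1.62 CPM in hydrogel wounds and 3.48, 3.34 and 16.2 CPM in control wounds, and Psmb8 18.3, 14.4 and 11.6 CPM in hydrogel wounds and 67.7, 26.2 and 29.6 CPM in control wounds.

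**Figure D3:**
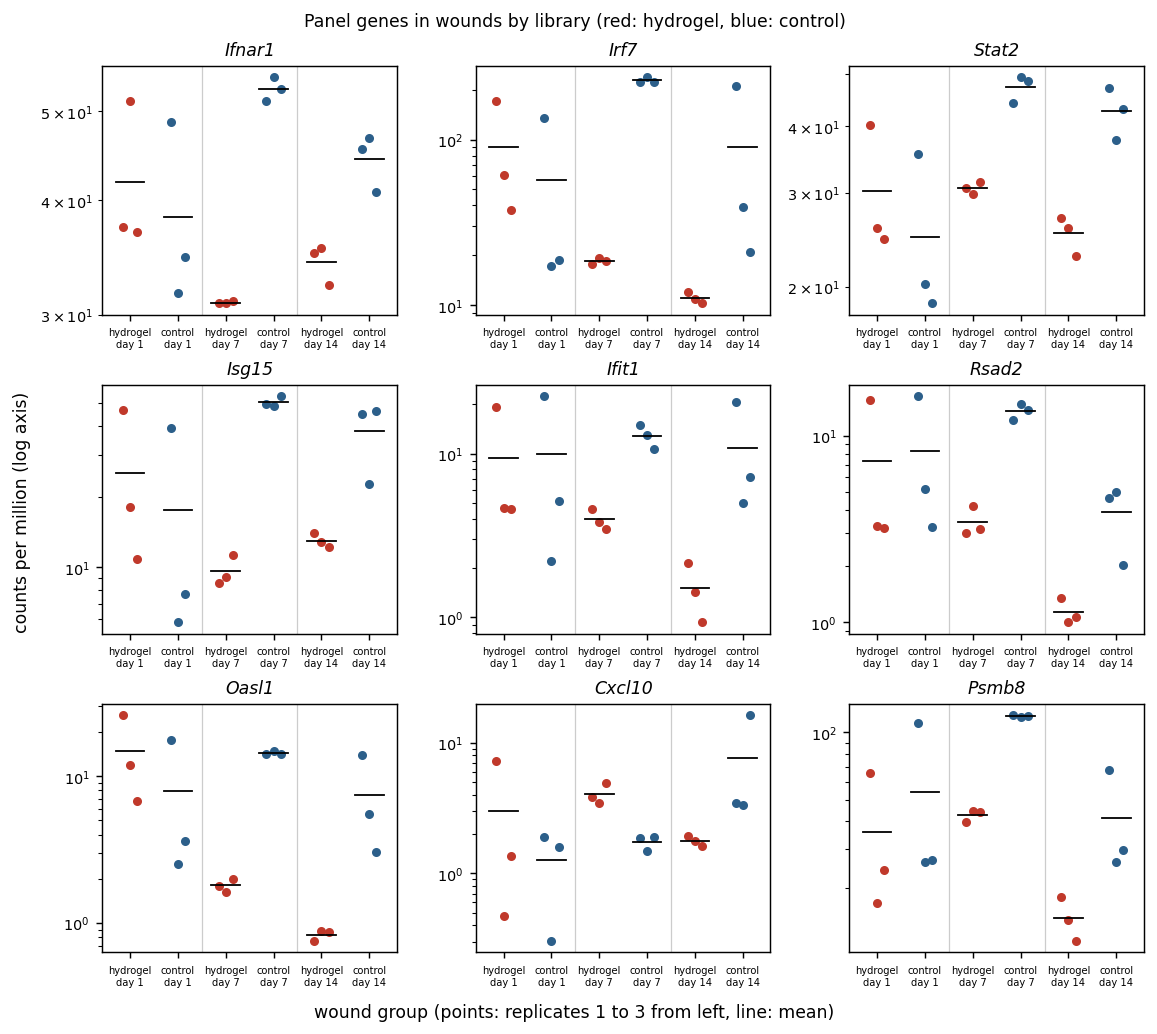
CPM (log axis) of 9 panel genes in each wound library, hydrogel in red and control in blue, at days 1, 7 and 14; points are replicates 1 to 3 from left, lines group means. The hydrogel libraries lie below all control libraries of the same day at days 7 and 14 for every gene shown except Cxcl10 at day 7, where they lie above, and the groups overlap at day 1.

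The calls at days 7 and 14 come from separate libraries that share 1 estimate of spread. 25 genes fell at both days, which is 25 of 33 at each. Of all genes, 11.7% were called lower at day 7 and 10.3% at day 14. The share of all genes called lower at both days was not computed, so this overlap cannot be set against it. Ifnar1, Ifnar2, Ifit3b, Ifit1bl1, Rsad2, Isg15, Ifi27l2a and Cxcl9 were called at day 7 and not at day 14, and Stat2, Irf9, Ifih1, Ifit1, Ifit2, Mx2, Usp18 and Dtx3l at day 14 and not at day 7. The interaction test below covers all 3 days and does not by itself compare day 14 with day 7. In an edgeR test of that pair alone, the lowest adjusted p among the genes of the list was 0.13, for Cxcl10. No difference between days 14 and 7 was thus called in any of them, while 302 of all 17592 genes were called. This does not show that the effects at the 2 days are equal. The 12 genes called at neither day were Ddx58, Ifit3, Mx1, Cmpk2, Eif2ak2, Parp9, Trim25, Cxcl10, Cxcl11, Psmb8, Psmb9 and Tap1.

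At day 1 the picture was different. Of 53 genes, 2 rose and 0 fell in hydrogel wounds, against 4.53% of all genes called higher and 3.02% called lower, and 12 had an unadjusted p below 0.05. The median log2 change was 0.37, against 0.042 over all genes. Oas2 stood at 17.1, 22.5 and 11.6 CPM in hydrogel wounds, against 4.89, 3.64 and 1.84 CPM in control wounds, and rose by 2.30 ± 0.37 (adjusted p = 0.00405, edgeR). Oas3 stood at 17.9, 12.3 and 3.10 CPM in hydrogel wounds, against 2.99, 0.758 and 0.760 CPM in control wounds, and rose by 2.87 ± 0.76 (adjusted p = 0.0345). In both genes every hydrogel library lay above every control library, as also in Dtx3l, which did not pass (log2 change 1.15 ± 0.39, adjusted p = 0.0766). A share of 3 of 53 genes with hydrogel libraries above the control libraries is below the 9.57% of all genes, and in 0 genes did they all lie below, against 7.52% of all genes.

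The rest of the panel overlapped at day 1. Irf7 had 171, 61.4 and 37.5 CPM in hydrogel wounds and 135, 17.2 and 18.6 CPM in control wounds. Isg15 had 46.7, 18.1 and 10.9 CPM in hydrogel wounds and 39.2, 5.84 and 7.67 CPM in control wounds. Ifit1 had 19.2, 4.63 and 4.55 CPM in hydrogel wounds and 22.4, 2.199 and 5.13 CPM in control wounds. Replicate 1 was the high library in each of these groups. Of the other panel genes, Cxcl10 was at a log2 change of 1.20 ± 0.83, Oasl1 at 0.92 ± 0.65, Stat2 at 0.29 ± 0.23, Ifnar1 at 0.13 ± 0.18, Rsad2 at -0.19 ± 0.61 and Psmb8 at -0.61 ± 0.55, and none passed. Of the same-numbered libraries of the 2 groups, only those numbered 1 clearly deviated together over all genes (correlation 0.44). With the replicate number as a block 5 genes passed in place of 2. Leaving out control replicate 1 gave 19 calls, all higher, and leaving out control replicate 2 or hydrogel replicate 1 gave 1 higher each. Without control replicate 3, 1 gene (Oas2) was called higher and 2 (Cxcl9 and Trim25) lower, and with DESeq2 4 were called higher and 1 (Trim25) lower. The summed day 7 libraries left 0, with 6 at an unadjusted p below 0.05.

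Control replicate 1 at day 1 also differed in its tissue markers. Its adipocyte markers summed to 69680 CPM, against 4766 CPM in the lowest library of that group, and its skeletal muscle markers to 5645 CPM, against 189600 CPM in the highest. Control replicate 1 at day 14 differed from replicates 2 and 3 too. Its fibroblast markers summed to 43480 CPM, against 15350 and 10180 CPM, and its macrophage markers to 4194 CPM, against 1608 and 547 CPM. Its basal keratinocyte markers summed to 500.8 CPM, against 3904 and 5480 CPM. With replicate 1 of the control wounds left out at both day 1 and day 14, a choice made after seeing the data, 28 genes rose in hydrogel wounds at day 1, 48 fell at day 7 and 36 fell at day 14. Of all genes 3564, 7149 and 2773 were then called at days 1, 7 and 14, against 1329, 3792 and 2836 with every library kept.

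Macrophage markers moved with the genes in the wounds. At day 7, 9 of 10 macrophage markers fell in hydrogel wounds, and the 10 summed to 343.4 to 394.1 CPM in hydrogel wounds and 2493 to 2512 CPM in control wounds. At day 14, 9 of 10 fell, with sums of 94.95 to 126.2 CPM in hydrogel wounds and 547 to 4194 CPM in control wounds. At day 1, 1 rose, with sums of 578.8 to 778 CPM in hydrogel wounds and 395 to 1061 CPM in control wounds. Other leukocyte markers moved at day 1 as well: 3 of 6 monocyte markers rose (median log2 change 2.05) and 2 of 7 neutrophil markers rose (median 2.04), and the neutrophil markers summed to 178.6 to 912.3 CPM in hydrogel wounds and 125.4 to 205.9 CPM in control wounds. At day 1, 2 of 6 fibroblast markers also rose and 3 of 3 erythrocyte markers fell. At day 7 Adgre1 (F4/80) fell by 3.24 ± 0.82 and C1qa by 2.76 ± 0.68, and the median log2 change over the 10 markers was -2.76. Fibroblast markers fell in 6 of 6 at both later days. Adipocyte markers fell in 6 of 6 at day 7 (median log2 change -5.18), with sums of 1311 to 1397 CPM in hydrogel wounds and 36390 to 37110 CPM in control wounds. Endothelial markers fell in 5 of 6 at day 7 and 2 of 6 at day 14, erythrocyte markers in 3 of 3 and 2 of 3, and monocyte markers in 3 of 6 and 4 of 6. Basal keratinocyte markers rose in 6 of 6 at day 7, with sums of 7439 to 7494 CPM in hydrogel wounds and 632.1 to 641.3 CPM in control wounds, and differentiated keratinocyte markers rose in 3 of 6. Skeletal muscle markers rose in 2 of 6 at day 7, with sums of 79050 to 93440 CPM in hydrogel wounds and 24990 to 25290 CPM in control wounds. Of 7 neutrophil markers at day 7, 1 rose and 1 fell, and of 5 plasmacytoid dendritic cell markers 1 rose and 2 fell. Conventional dendritic cell markers fell in 2 of 6, T and NK cell markers in 2 of 7 and the B cell marker tested in 1 of 1. The part of cell composition in the lower response was not tested.

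**Figure D4:**
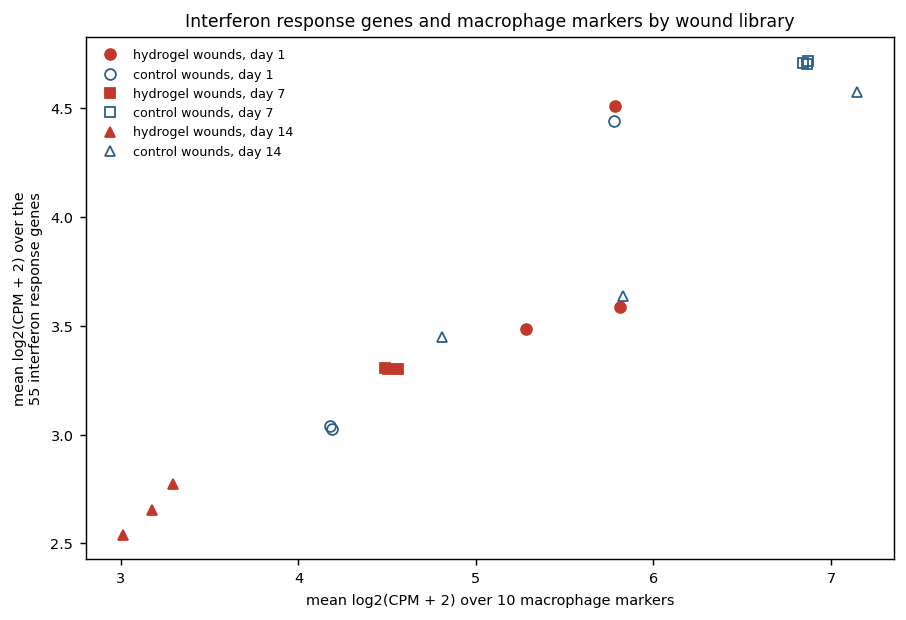
Mean log2(CPM + 2) over the 55 interferon response genes (vertical) and over 10 macrophage markers (horizontal) in each of the 18 wound libraries, filled red for hydrogel and open blue for control, with a circle, square or triangle for days 1, 7 and 14. The 3 hydrogel libraries at day 14 are the lowest on both axes, at 2.54 to 2.77 over the response genes, and the 3 control libraries at day 7 are at 4.70 to 4.72.

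The days were then compared within each arm; the comparisons with day 1 share those libraries. In hydrogel wounds, 38 of 53 genes fell at day 14 against day 1 and 0 rose, against 26.1% and 21.8% of all genes. The median was -1.69. Oas2 fell by 3.06 ± 0.38 (adjusted p = 6.02e-05, edgeR), Oasl1 by 4.16 ± 0.74 (adjusted p = 0.000569), Trim30a by 3.36 ± 0.64 (adjusted p = 0.000887) and Ifi35, an interferon-induced adaptor, by 1.31 ± 0.22 (adjusted p = 0.000348). In 42 genes the libraries at day 14 all lay below those at day 1, against 29.7% of all genes. All 6 sensors and all 6 OAS genes fell, as did 6 of 8 other antiviral effectors. Among the factors Irf8 fell by 2.02 ± 0.48 and Irf7 by 3.03 ± 0.87, and among the sensors Ifi204 by 3.28 ± 0.76 and Ifih1 by 1.66 ± 0.39. The receptor chain Ifnar2 fell by 1.36 ± 0.46. Ifit1 fell by 2.64 ± 0.79, Ifit3b by 1.65 ± 0.47, Bst2 by 2.21 ± 0.55, Usp18 by 2.26 ± 0.75, Parp14 by 1.80 ± 0.38, Dtx3l by 1.47 ± 0.39, Trim30d by 4.28 ± 0.96 and Sp100 by 2.31 ± 0.48. Trim30d was low, at 0.0284 CPM per kilobase at day 14 and 0.586 at day 1. Stat2, at -0.26 ± 0.23, Ifnar1, at -0.29 ± 0.18, and Isg15, at -0.95 ± 0.59, did not pass. Rsad2 fell by 2.67 ± 0.66 and had 1.34, 0.998 and 1.07 CPM at day 14 and 15.5, 3.26 and 3.21 CPM at day 1. No chemokine and no antigen processing gene was called. Without hydrogel replicate 1 of day 1 or replicate 3 of day 14 the count was 25 each. Markers fell as well between these days, 9 of 10 of macrophages, 4 of 6 of monocytes, 6 of 7 of neutrophils, 6 of 6 of endothelium and 6 of 6 of skeletal muscle, while 4 of 7 T and NK cell markers rose. Their part in the result was not tested.

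At day 7 against day 1 in hydrogel wounds, 6 genes fell and 1 rose, against 10.5% and 7.76% of all genes. In 22 genes the day 7 libraries all lay below those of day 1, against 20.7% of all genes. Oas1g, Oas2, Oas3, Oasl1, Dhx58 and Trim30a fell, Oas2 by 2.05 ± 0.36 (adjusted p = 0.00371, edgeR) and Oasl1 by 3.04 ± 0.71 (adjusted p = 0.0116). Dhx58 fell by 1.71 ± 0.54 and Trim30a by 1.97 ± 0.61. Irf7 was at -2.28 ± 0.84 and Isg15 at -1.38 ± 0.60, neither called, and Stat2 at 0.02 ± 0.23. Tap1 rose by 0.88 ± 0.29 (adjusted p = 0.0439), with 59.4, 60.6 and 57.0 CPM at day 7 and 45.3, 26.4 and 24.5 CPM at day 1. The count was 2 without hydrogel replicate 2 of day 1, 1 without replicate 1 or 2 of day 7, 3 without replicate 3 of day 7, and 0 with the day 7 libraries summed. Of the leukocyte markers, 3 of 10 of macrophages, 4 of 6 of monocytes and 4 of 7 of neutrophils fell, and their part was not tested.

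In control wounds, 22 of 53 genes rose at day 7 against day 1 and 0 fell, against 15% and 16.6% of all genes, with a median log2 change of 1.34. Oas2 rose by 2.60 ± 0.37 (adjusted p = 0.000349, edgeR), Sp100 by 2.28 ± 0.48 (adjusted p = 0.00343), Oas3 by 3.41 ± 0.77 (adjusted p = 0.00514) and Irf8 by 2.03 ± 0.48 (adjusted p = 0.00606). Stat2 rose by 0.94 ± 0.24, and Psmb9, an immunoproteasome subunit, by 1.79 ± 0.43 (adjusted p = 0.00723). Cxcl9 stood at 40.3, 44.0 and 46.5 CPM at day 7 and at 15.5, 1.21 and 0.254 CPM at day 1, and rose by 2.94 ± 0.88 (adjusted p = 0.0206). Cxcl11 had 0.521, 0.542 and 0.838 CPM at day 7 and 0, 0 and 0.0634 CPM at day 1. Dhx58 rose by 1.92 ± 0.54, Ifit1bl1 by 2.97 ± 0.94, Samd9l by 1.42 ± 0.49, Herc6 by 1.69 ± 0.60, Parp14 by 1.36 ± 0.38, Trim30a by 1.79 ± 0.60 and Ifi44 by 2.88 ± 0.84. Irf7, at 2.00 ± 0.83, Isg15, at 1.53 ± 0.60, and Ifit1, at 0.37 ± 0.73, did not pass. In the control arm 45 genes rose and 0 fell without replicate 1 of day 1. Without replicate 2 of day 1, 8 rose and 0 fell, and without replicate 3 of day 1, 10 rose and 1 fell. With the day 7 libraries summed 0 were called. In the same comparison 6 of 10 macrophage, 6 of 6 fibroblast and 4 of 6 conventional dendritic cell markers rose, and 4 of 6 basal and 5 of 6 differentiated keratinocyte markers fell. Their part in the result was not tested.

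At day 14 against day 1 in control wounds 6 genes rose and 2 fell, against 16.7% and 15.7% of all genes. Oas2 rose by 1.64 ± 0.36 (adjusted p = 0.00378, edgeR), Oasl2 by 1.95 ± 0.57 (adjusted p = 0.0178) and Stat2 by 0.78 ± 0.23. Cxcl10 rose by 2.59 ± 0.84 (adjusted p = 0.0283), and Oas3 and Cxcl11 rose too. Irf7, at 0.66 ± 0.81, Rsad2, at -1.09 ± 0.62, and Isg15, at 1.11 ± 0.59, did not pass. Trim25, a ubiquitin ligase that activates the RNA sensor Ddx58, fell by 1.42 ± 0.42 (adjusted p = 0.0185), with 56.7, 50.5 and 45.8 CPM at day 14 and 281, 75.0 and 54.6 CPM at day 1. These Trim25 values overlap, and the change rests on the high first library of day 1. Ifi35 fell by 0.75 ± 0.21 (adjusted p = 0.0149). Without control replicate 1 of day 1, 30 rose and 1 fell. Without replicate 2 of day 1, 2 rose and 2 fell, and without replicate 3 of day 1, 2 rose and 3 fell. Without control replicate 1 of day 14, 4 rose and 5 fell, without replicate 2 of day 14, 5 rose and 0 fell, and with the day 7 libraries summed 1 (Oas2) rose. Between these days 5 of 10 macrophage and 6 of 6 fibroblast markers rose, and 6 of 6 adipocyte and 4 of 6 endothelial markers fell, and their part was not tested.

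The hydrogel effect itself differed between the days in 18 of 53 genes by an interaction test in the edgeR fit over all wound libraries, against 15.8% of all genes, and 35 had an unadjusted p below 0.05. The smallest adjusted p among the 53 was that of Oas2, 0.00021, whose effect was 4.65 ± 0.52 lower at day 7 than at day 1 and 4.70 ± 0.52 lower at day 14 than at day 1 on the log2 scale, a change of sign between day 1 and the later days. Between days 14 and 7 the effects on Oas2 differed by -0.05 ± 0.48 (adjusted p = 0.972). The effect on Irf8 was 2.55 ± 0.66 lower at day 7 than at day 1 (adjusted p = 0.021). The genes called were all 6 OAS genes, Irf7, Irf8, Dhx58, Zbp1, Ifit3b, Parp14, Dtx3l, Trim30a, Trim30d, Ifi44, Sp100 and Cxcl11. Cxcl11 was near 0 in control wounds at day 1, at 0.00557 CPM per kilobase. The count was 48 without control replicate 1 of day 1 and 11 without control replicate 2 or 3 of day 1. With the day 7 libraries summed within groups it was 1, with 21 at an unadjusted p below 0.05, and 27 of all genes were called.

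In the RAW264.7 cells, interferon response genes were lower with hydrogel while Ifnb1 was higher. Of 54 genes tested, 45 fell and 1 rose, against 37.8% of all 12972 genes called lower and 34.7% called higher, and 49 had an unadjusted p below 0.05. The median log2 change was -1.14, against -0.036 over all genes. In 45 genes every hydrogel library lay below every LPS-only library, against 39.9% of all genes. Leaving out any 1 library gave 45 to 49 calls, and all 46 genes but Oas3 were called under every alternative run, which is 45 genes.

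Ifnb1 rose by 2.68 ± 0.34 (adjusted p = 4.21e-05, edgeR). It stood at 0.953, 0.793 and 1.14 CPM in hydrogel cells, against 0.167, 0.0966 and 0.168 CPM in LPS-only cells. The counts behind these levels were few, 62 in all hydrogel libraries and 10 in all LPS-only libraries, a ratio of 6.60 with a 95% counting interval of 3.36 to 14.4 that covers counting error only. Ifnar1 stood at 38.5, 43.5 and 52.3 CPM in hydrogel cells, against 76.8, 79.7 and 78.3 CPM in LPS-only cells, and fell by 0.80 ± 0.10 (adjusted p = 3.21e-05). Ifnar2 did not pass, at -0.05 ± 0.11 (adjusted p = 0.667).

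Of the transcription factors 3 of 5 fell in cells. Stat2 stood at 96.0, 101 and 112 CPM in hydrogel cells, against 273, 275 and 279 CPM in LPS-only cells, and fell by 1.42 ± 0.07 (adjusted p = 7.12e-08, edgeR). Irf1 fell by 1.01 ± 0.09 (adjusted p = 3.01e-06). Irf7 had 545, 493 and 423 CPM in hydrogel cells, against 921, 911 and 947 CPM in LPS-only cells. Irf9 and Irf8 were at log2 changes of 0.13 ± 0.06 and 0.08 ± 0.06 and did not pass. Irf9 had 105, 111 and 116 CPM in hydrogel cells and 99.2, 103 and 101 CPM in LPS-only cells, so that Stat2 and Irf9, partners in the same complex, stood apart in these cells. All 6 sensors fell. Ifi204 stood at 48.1, 48.0 and 45.3 CPM in hydrogel cells, against 289, 292 and 284 CPM in LPS-only cells (log2 change -2.61 ± 0.06, adjusted p = 3.62e-09), and Ifih1 fell by 1.84 ± 0.07.

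The Ifit family and Rsad2 fell in the cells. All 5 Ifit genes passed. Ifit1 stood at 14.9, 14.3 and 14.2 CPM in hydrogel cells, against 97.2, 96.1 and 95.2 CPM in LPS-only cells, a log2 change of -2.73 ± 0.06 (adjusted p = 3.62e-09, edgeR). Ifit2 fell by 3.21 ± 0.08 (adjusted p = 3.62e-09). Rsad2 stood at 70.0, 80.0 and 92.1 CPM in hydrogel cells, against 851, 845 and 834 CPM in LPS-only cells, and fell by 3.38 ± 0.10 (adjusted p = 6.27e-09). Mx1, a dynamin-like GTPase, fell by 2.64 ± 0.09, and all 8 of the other antiviral effectors fell. Ifi205 had 6 counts in all hydrogel libraries and 287 in all LPS-only libraries, a ratio of 0.0223 with a 95% counting interval of 0.0081 to 0.049.

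The OAS genes moved less in the cells than the Ifit genes by their medians, -0.57 against -2.73 on the log2 scale. Of 6 OAS genes 5 fell. Oasl2 fell by 1.76 ± 0.06 (adjusted p = 1.86e-08, edgeR), Oas2 by 1.08 ± 0.07 and Oas3 by 0.16 ± 0.05 (adjusted p = 0.021). Oas1a did not pass, with 364, 324 and 295 CPM in hydrogel cells and 318, 304 and 312 CPM in LPS-only cells. Oasl1 stood at 576, 544 and 505 CPM in hydrogel cells, against 931, 911 and 943 CPM in LPS-only cells. In wounds at days 7 and 14 the order of these medians was the other way, -2.52 and -3.09 for the OAS genes and -1.70 and -2.19 for the Ifit genes. These are descriptions of the lists, and no test was made between them.

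Isg15 stood at 237, 227 and 198 CPM in hydrogel cells, against 420, 434 and 418 CPM in LPS-only cells, and fell by 0.94 ± 0.07 (adjusted p = 1.13e-06, edgeR). Herc6 fell by 1.99 ± 0.08, Parp14 by 1.74 ± 0.07, Parp9 by 1.18 ± 0.06, Trim30a by 1.72 ± 0.06, Trim30c by 4.90 ± 0.30, Ifi44 by 1.83 ± 0.06 and Sp100 by 1.35 ± 0.06. Cxcl10 stood at 23.5, 27.9 and 28.2 CPM in hydrogel cells, against 35.4, 34.0 and 36.9 CPM in LPS-only cells, and fell by 0.41 ± 0.08 (adjusted p = 0.00108). Cxcl11 fell by 1.69 ± 0.18, and Cxcl9, with at most 0.126 CPM in any cell library, was too low to test. Tap1 fell by 0.50 ± 0.08, but Psmb8 and Psmb9 were at 0.23 ± 0.10 and -0.29 ± 0.12 and did not pass. Psmb8 had 100, 87.2 and 72.0 CPM in hydrogel cells and 74.4, 73.7 and 72.8 CPM in LPS-only cells.

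**Figure D5:**
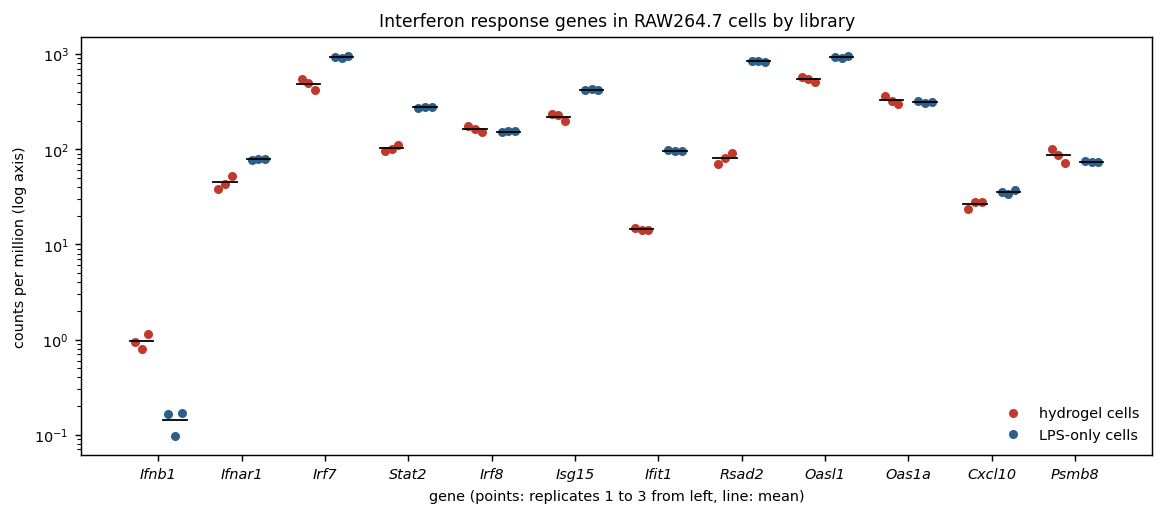
CPM (log axis) of 12 genes in each RAW264.7 library, hydrogel cells in red to the left of LPS-only cells in blue; points are replicates 1 to 3 from left, lines group means. Ifnb1 lies higher with hydrogel, the response genes Stat2, Ifit1 and Rsad2 lie lower, and the groups overlap in Oas1a, Irf8 and Psmb8.

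Wounds and cells use separate libraries, so their calls can be set side by side. Of 52 genes tested in both, 27 fell at day 7 and in cells, and 29 at day 14 and in cells. 22 fell in all 3 comparisons, among them Irf7, Irf1, Ifi204, Oas2, Oasl2, Isg20, Bst2, Trim30a, Ifi44 and Sp100. Irf8, Oas1a and Ifi35 fell at both days in wounds and were not called in cells. Ddx58, Mx1, Cmpk2, Eif2ak2, Cxcl10, Cxcl11 and Tap1 were among 11 genes that fell in cells and at neither day in wounds, of which Trim30c was too low to test in wounds. The share of all genes called lower was 37.8% in cells, which bears on any such overlap. The share of all genes called lower in both wounds and cells was not computed. Macrophage markers did not move one way in cells: 5 of 8 tested rose and 2 fell, Lyz2 by 1.44 ± 0.08 upwards and Adgre1 by -1.60 ± 0.16.

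Genes whose window holds the response element letters and those whose window does not gave like counts in wounds. At day 7, 11 of 18 genes with the letters and 15 of 23 tested without them fell, and at day 14, 10 of 18 and 15 of 23. In cells 17 of 18 with the letters and 17 of 24 tested without them fell, with medians of -1.63 and -0.87 on the log2 scale. No test was made, and absence of the letters says only that they are not in this window.

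Beyond the 55 genes, lists of other pathway genes were examined. Of 20 sensing and signalling genes, 3 rose and 0 fell at day 1, against 4.53% of all genes called higher and 3.02% called lower. At day 7, 5 fell and 1 rose, against 11.7% of all genes called lower and 9.86% called higher, and at day 14, 6 fell and 1 rose, against 10.3% and 5.83%. In cells 11 fell and 4 rose, against 37.8% and 34.7%. Tlr7, an endosomal RNA receptor, stood at 1.29, 1.68 and 1.67 CPM in hydrogel wounds at day 7, against 18.2, 20.1 and 19.6 CPM in control wounds, and fell by 3.63 ± 0.79 (adjusted p = 0.0063, edgeR). Sting1, the adaptor of cytosolic DNA sensing, fell by 1.22 ± 0.37 and Socs3, a feedback inhibitor of cytokine receptors, rose by 1.20 ± 0.40 at day 7. In cells Tlr3 fell by 2.13 ± 0.10, Tlr4, the LPS receptor, by 1.56 ± 0.08 and Tbk1, the kinase that activates interferon factors, by 1.14 ± 0.06. Of 19 further induced genes in the files, 1 rose at day 1, 10 fell at day 7, 11 fell at day 14, and in cells 9 of 18 tested fell and 3 rose, beside the same shares of all genes. Lgals3bp fell by 3.20 ± 0.78 at day 7, and Ifitm3, a membrane protein that hinders viral entry, fell by 2.32 ± 0.52 at day 14 but rose by 0.50 ± 0.07 in cells.

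Of the other interferons and their receptors, 12 of 13 were in the files and 4 passed the filter in wounds. Ifngr1, a receptor chain for interferon gamma, fell by 1.00 ± 0.20 at day 7 and by 1.06 ± 0.20 at day 14. Ifnlr1, the epithelial receptor chain for interferon lambda, stood at 9.40, 10.8 and 10.4 CPM in hydrogel wounds at day 7, against 0.818, 1.08 and 0.768 CPM in control wounds, and rose by 3.50 ± 0.84 (adjusted p = 0.0106, edgeR). It was counted at 0 in all 6 cell libraries.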

How the data were processed

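Messenger RNA was sequenced from 18 wound libraries and 6 RAW264.7 libraries, 3 per group, and the authors deposited whole-number counts of read pairs per gene symbol. Per the file headers, featureCounts 2.0.6 counted pairs over exons of GENCODE M25 (GRCm38), with no strand option, and pairs that mapped to several places or genes were not counted. Per the submitters' processing notes, FastQC 0.11.9, Trim Galore 0.6.10, HISAT2 2.2.1 and SAMtools 1.9 were used with mm10. Their other settings, and the filter behind the alignment files, are not given in the sources used here. All 32 mitochondrial symbols were at 0.

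From the counts, edgeR 4.0.16 (R 4.3.3) fitted a robust quasi-likelihood model with TMM scaling and filterByExpr (minimum count 10, total 15), over all 18 wound libraries with a mean per group (12 residual degrees of freedom, 17592 genes) and over the 6 cell libraries (12972 genes, 4 degrees of freedom left). Tests were two-sided, p-values were Benjamini-Hochberg adjusted over all genes tested, and a gene was called at an adjusted p below 0.05. Of the 55 genes, Ifnb1 and Trim30c were too low to test in wounds and Cxcl9 in cells. The SE of a log2 fold change was its size divided by the square root of F. CPM values use the library totals of the genes kept by the filter, multiplied by their TMM factors. The limits for counts of 0 use plain library totals. Averages over gene lists use log2(CPM + 2). The fitting code was also run on simulated counts that held no outlying libraries and no differences in tissue make-up. That run therefore does not show how such features affect the calls here. Intervals and limits for low counts cover counting error only.

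The genes, lists and tests were chosen with earlier results of these data known. Named genes are a fixed panel (Ifnb1, Ifnar1, Irf7, Stat2, Isg15, Ifit1, Rsad2, Oasl1, Cxcl10, Psmb8), and for each comparison up to 2 called genes per role and direction with the smallest adjusted p, plus those called against the common direction. Other named genes, such as Irf9, Usp18 and Oas1a, were chosen after their values were seen. Labels give the same replicate numbers to all groups. At day 1 the deviations from group means of same-numbered libraries had correlations of 0.44, 0.34 and 0.133 for numbers 1, 2 and 3. The highest correlations with another number were -0.316, 0.31 and 0.282, so that only number 1 stood clearly apart. In controls at day 14 against day 1 the same-number values were 0.324, 0.0829 and 0.319. These values establish no pairing, and the block is given only as an alternative. Alternatives were RLE scaling, no filter, DESeq2 1.42.0, limma-voom (limma 3.58.1), a replicate block, a fit of 2 groups only, day 7 libraries summed, each library left out, and, chosen after seeing the data, 2 control libraries left out. Promoter windows came from RefSeq (GRCm38.p6).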

Additional observations from a re-analysis of the deposited data

Results flagged for a closer look

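The hydrogel effect differed between days 1, 7 and 14 by the interaction test in edgeR (adjusted p below 0.05) in 18 genes, with lower effects at days 7 and 14 than at day 1 in all 18 by their fitted values. With the day 7 libraries summed within groups 1 gene passed. In the OAS family the adjusted p was 0.00021 for Oas2, 0.00307 for Oas3, 0.00621 for Oasl2, 0.00923 for Oas1g, 0.0144 for Oasl1 and 0.0339 for Oas1a. Among factors and sensors it was 0.00778 for Dhx58, 0.0112 for Irf8, 0.0296 for Zbp1 and 0.0394 for Irf7. It was 0.00664 for Sp100, 0.00705 for Trim30a, 0.0236 for Trim30d, 0.0126 for Parp14, 0.0203 for Dtx3l, 0.0201 for Ifi44, 0.0425 for Ifit3b and 0.043 for Cxcl11.

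In several genes the wound groups of a day lay apart without overlap and the cell groups lay apart the opposite way. The difference between wounds and cells was not tested. Over all genes, hydrogel libraries lay higher in 9.57% at day 1 and lower in 20% at day 14. At day 7, 35.3% lay higher and 34.9% lower, and in cells 36% higher and 39.9% lower. The share of all genes apart in opposite ways was not computed. Irf9 was at a log2 change of -0.44 at day 7 and -0.83 at day 14 in wounds and lay higher in hydrogel cells. Its changes at day 7 and in cells were not called. Lower in hydrogel cells but higher in hydrogel wounds were Oas2 (2.30 at day 1), Oas3 (2.87 at day 1), Dtx3l (1.15 at day 1), Cxcl10 (1.22 at day 7), Cxcl11 (0.73 at day 7) and Tap1 (0.43 at day 7). The wound changes of Dtx3l, Cxcl10, Cxcl11 and Tap1 at these days were not called.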

How the results depend on the processing

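Counts of called genes are given in the order day 1, day 7 and day 14 (hydrogel against control), days 7 and 14 against day 1 in hydrogel wounds, days 7 and 14 against day 1 in control wounds, interaction and cells. They were 2, 33, 33, 7, 38, 22, 8, 18 and 46 in the fit reported. RLE scaling kept all 9 within 1.5 times. Without the filter they were 1, 20, 20, 4, 29, 17, 6, 13 and 49, with DESeq2 5, 37, 45, 13, 38, 25, 12, 28 and 47, and with limma-voom 16, 53, 50, 25, 45, 49, 25, 47 and 51. Of all genes, limma-voom called 12339 at day 7 and 10811 in cells, against 3792 and 9409 in the fit reported. The replicate block gave 5, 43, 41, 10, 39, 33, 13, 28 and 47, and whether same-numbered libraries are paired is not known for any day. Only the 2 groups compared gave 0, 52, 9, 11, 35, 11 and 0 for the first 7, with 0, 11122 and 433 of all genes at days 1, 7 and 14. Summing the day 7 libraries gave 0, 0, 2, 0, 28, 0, 1 and 1, with 6, 3, 45, 2, 37, 17, 9 and 21 at an unadjusted p below 0.05, from fewer samples. Leaving out replicate 1 of the day 1 and day 14 controls gave 28, 48, 36, 25, 46, 48, 26 and 50. Each library left out gave 1 to 19, 7 to 16, 8 to 37, 1 to 7, 25 to 41, 8 to 45, 4 to 31, 11 to 48 and 45 to 49. The cause of these changes was not tested.

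Of the single-gene values under alternatives, 4728 kept side and direction, 586 were weaker, 454 stronger and 6 reversed. The 6 are log2 changes of 0.81 for Ifnar2 at day 1 and 0.76 for Ifit2 at day 7 against day 1 in hydrogel wounds (limma-voom), of 1.00 for Ifnar2 (without control replicate 1 of day 1) and -1.75 for Ifi205 (without control replicate 1 of day 14) at day 14 against day 1 in control wounds (ranges with each library left out -0.45 to 1.00 for Ifnar2 and -1.75 to 1.18 for Ifi205), and of 1.09 for Ifi204 and 1.02 for Ifnar2 at day 1 with both controls left out; the cause was not tested. Depth limits Ifnb1 in wounds and Ifi205, Trim30c and Cxcl9 in cells. It also limits Trim30d, Ifit1bl1 and Cxcl11 in wounds, at 0.0284, 0.0213 and 0.0427 CPM per kilobase in hydrogel wounds at day 14. In hydrogel cells Trim30d and Ifit1bl1 were as low, at 0.0448 and 0.0712 CPM per kilobase.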
